A study of Mus musculus with 3 samples.

Results

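The genes followed across the cells of the mouse prostate make, carry, bind and break down retinoic acid: Aldh1a1, Aldh1a2, Aldh1a3, Rdh10, Rbp4, Crabp2 and Cyp26b1. They were chosen by symbol, and all 7 were found among the 32594 genes listed in the files. Another 50 genes of retinoid metabolism and signalling are described more briefly. Whole prostate of C57BL6 mice was dissociated and measured by droplet single-cell RNA sequencing, which counts unique molecular identifiers (UMIs) per gene and cell barcode. One group was Srd5a2 knockout (Srd5a2-/-, 1 library) and the other Srd5a2 heterozygote (Srd5a2+/-, 2 libraries, called heterozygote 1 and heterozygote 2), all at 12 to 15 weeks of age by their labels, and 12 weeks by the tissue protocol. Srd5a2 encodes steroid 5α-reductase type 2, which makes dihydrotestosterone, and no library came from mice with 2 intact copies. Tissue of both groups was digested for 2 h at 37 °C with dihydrotestosterone in the buffer. The labels state neither the number of animals per library nor the part of Srd5a2 that was removed.

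Retinol circulates bound to Rbp4, the plasma carrier, and enters cells in part through the receptor Stra6. In the cell Rdh10 oxidises retinol to retinal, and the aldehyde dehydrogenases Aldh1a1, Aldh1a2 and Aldh1a3 oxidise retinal to retinoic acid. Crabp2 brings retinoic acid to nuclear receptors of the Rar and Rxr families, and Cyp26b1, a cytochrome P450, breaks it down. The pathway is best known for patterning in embryos and for epithelial differentiation, including that of the prostate bud.

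The libraries held 129015041 UMIs in 13273 knockout barcodes, 47601747 in 5000 barcodes of heterozygote 1 and 100801564 in 13866 barcodes of heterozygote 2. After filters 9167, 4521 and 9658 cells were kept in the same order, with medians of 4373, 6928 and 4889.5 UMIs per cell. Heterozygote 1 stood apart in that none of its barcodes had fewer than 2466 UMIs, against lowest totals of 586 in the knockout and 500 in heterozygote 2. The knockout and heterozygote 2 shared 57 barcodes, the knockout and heterozygote 1 shared 15, and the heterozygotes shared 16. Cells were clustered without any retinoid gene and named from marker genes into 12 classes, each meant as "like" its namesake, such as basal-like; 7 of the 39 clusters kept no name. In fibroblasts Srd5a2 had 1 UMI in the knockout, against 25 and 45 in heterozygotes 1 and 2, and in smooth muscle 3, against 59 and 55. UMIs were summed per library and class, and 8 classes with at least 50 cells in every library were tested. Levels are given as CPM, UMIs per 1000000 UMIs of that class and library. The sets of cells that share a label differed between libraries, so levels of a class can move with its make-up as well as with the RNA of its cells.

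Aldh1a1 (mm10 chromosome 19, 20492715 to 20643465, plus strand), a retinal dehydrogenase, was widespread, with its highest levels in stroma and basal cells. It stood at 218 CPM in knockout fibroblasts, against 290 and 331 CPM in fibroblasts of heterozygotes 1 and 2. In basal cells, the outer layer of the gland, it reached 243 CPM in the knockout, against 341 and 201 CPM. These 2 classes and smooth muscle overlapped over libraries, so no order holds among them. Glia were few and uneven, with 33 UMIs at 242 CPM in the knockout, against 0 and 5 UMIs. Glial markers took 0.491% of the UMIs of this class in the knockout, against 0% and 0.0962% in heterozygotes 1 and 2. Neuroendocrine markers took 0.00733%, against 0.110% and 0.0925%, so cells named glia may differ in kind between libraries. Proximal luminal cells, the Psca- and Krt4-bearing epithelium near the urethra, followed with 66.5 CPM in the knockout, against 117 and 80.3 CPM. The share of basal cells with an Aldh1a1 UMI was 48.0% in the knockout, against 57.9% and 36.6%. With every cell thinned to 1000 UMIs it was 16.8%, against 27.1% and 15.7%. T or NK cells, taken as background, had a thinned share of 0% of 249 knockout cells and 2.82% of 71 heterozygote 2 cells. Dendritic cells held no Aldh1a1 UMI in any library, where 3 UMIs would be 13.2 CPM in the knockout, against 30.9 and 24.9 CPM.

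Upstream sequence is shown for Aldh1a1 and Aldh1a2, on which most of the results turn, because 1 window of each holds the same pair of short motifs. The other Aldh1a1 window, at chr19:20492333-20492582 and nearer the gene start given above, holds neither and is not shown. The windows shown are the 250 bases before a start annotated by RefSeq (GRCm38.p6), both on the plus strand, at chr19:20601718-20601967 for Aldh1a1 and chr9:71215539-71215788 for Aldh1a2. Capitals mark CCAAT and ATGCAAAT, the octamer, searched on both strands.
Aldh1a1: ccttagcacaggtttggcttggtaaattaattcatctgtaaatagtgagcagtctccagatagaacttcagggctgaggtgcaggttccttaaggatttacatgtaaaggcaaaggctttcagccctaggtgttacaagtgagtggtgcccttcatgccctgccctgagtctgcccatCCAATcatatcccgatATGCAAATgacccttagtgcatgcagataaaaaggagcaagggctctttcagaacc
Aldh1a2: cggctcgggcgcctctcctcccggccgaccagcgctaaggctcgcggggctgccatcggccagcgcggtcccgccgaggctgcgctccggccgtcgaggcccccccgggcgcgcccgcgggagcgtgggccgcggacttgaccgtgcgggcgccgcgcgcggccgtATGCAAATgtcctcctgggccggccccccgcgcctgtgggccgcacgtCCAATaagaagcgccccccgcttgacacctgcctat
In Aldh1a1 the CCAAT box begins 72 bases and the octamer 56 bases before the start. In Aldh1a2 they begin 36 and 84 bases before it. Of 32851 windows of that length in the table, 33.8% hold CCAAT and 1.60% hold the octamer; both motifs were picked after the windows had been read. The half-sites AGGTCA of nuclear receptors and AGAACA of androgen and glucocorticoid receptors, each in either orientation, were present in 14.02% and 16.1% of all windows and in none of the 6 windows found for 4 of the 7 genes. That says only that these letters are not in these windows, which also cover Rbp4 and Cyp26b1.

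Aldh1a1 was lower in the knockout in smooth muscle and in secretory luminal cells. Smooth muscle cells held 333 Aldh1a1 UMIs in the knockout, against 219 and 220 in heterozygotes 1 and 2, which is 83.1 CPM against 253 and 172 CPM. The knockout lay below both heterozygotes, and its 95% counting interval of 74.4 to 92.5 CPM did not reach theirs. Such intervals cover counting error only, not the spread between libraries, so they do not measure a genotype difference. The log2 fold change, knockout minus heterozygote, was -1.19 ± 0.29 (standard error; edgeR quasi-likelihood test, Benjamini-Hochberg adjusted p = 0.00276), while DESeq2 gave -1.19 with an adjusted p of 0.22. In this class edgeR called 403 of 9816 genes, 4.11%, and 2.36% as lower in the knockout; DESeq2 called 0.387%. Cluster 7, which held 97.3% of the Aldh1a1 UMIs of knockout smooth muscle and 97.7% and 98.2% of those of the heterozygotes, showed 90.5 CPM in the knockout, against 320 and 205 CPM. Fitted alone it gave -1.37 ± 0.29 (edgeR adjusted p = 1.86e-04; 3.31% of genes called).

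In secretory luminal cells, which make the prostatic fluid, Aldh1a1 reached 16.7 CPM in the knockout, against 41.3 and 36.8 CPM. The knockout again lay below both heterozygotes. The change was -1.22 ± 0.33 (edgeR adjusted p = 0.0163; DESeq2 adjusted p = 0.0388), in a class where edgeR called 303 of 16335 genes, 1.85%, and 1.18% as lower in the knockout, and DESeq2 0.692%. Most of these transcripts came from 1 cluster, number 14, led by Muc19, Msmb and Defb50, with 199 UMIs at 101 CPM in the knockout, against 575 UMIs at 200 CPM and 1079 UMIs at 208 CPM. Cluster 14 fitted alone gave -0.89 ± 0.35 and did not pass (edgeR adjusted p = 0.386; 0.863% of genes called). The class value also missed the threshold with no filter on low counts (adjusted p = 0.0783) and among cells of at least 2466 UMIs (adjusted p = 0.166).

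**Figure D1:**
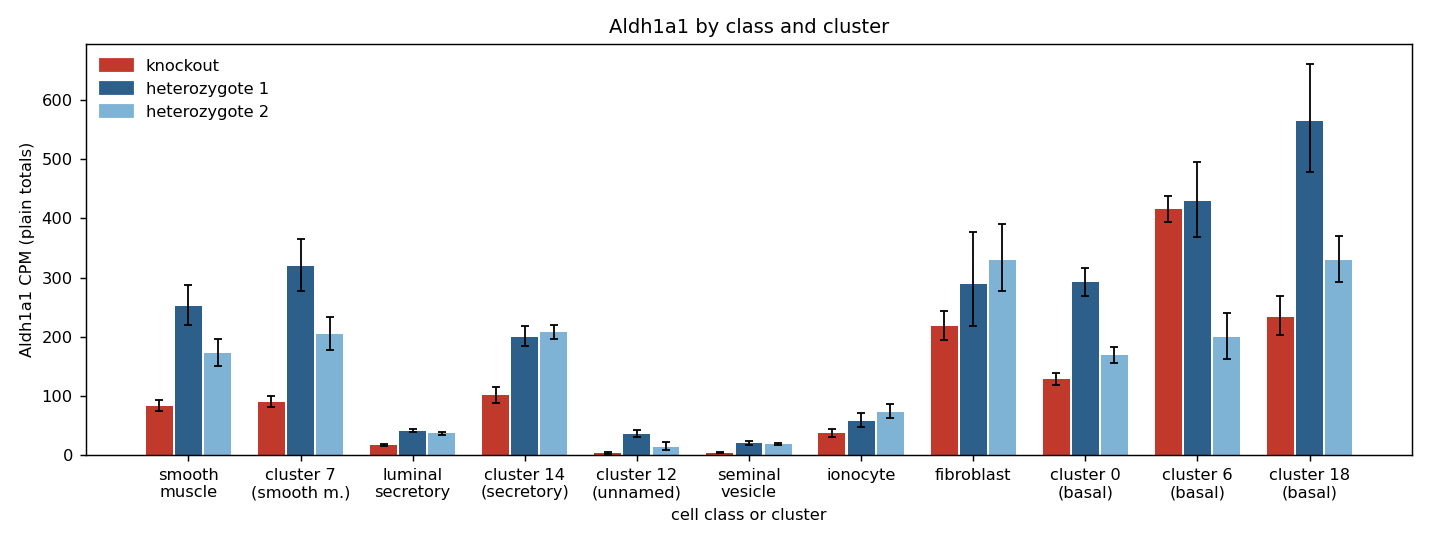
Aldh1a1 level (CPM on plain totals, vertical axis from 0) in cell classes and in single clusters; bars are libraries and error bars exact Poisson 95% intervals, which cover counting error only. The knockout bar is below both heterozygote bars in smooth muscle (83.1 against 253 and 172 CPM) and in secretory cells (16.7 against 41.3 and 36.8 CPM), while in basal cluster 6 it lies between them.

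RNA of the seminal vesicle, the neighbouring gland, was more frequent in the knockout in both classes. Its 8 marker genes (Svs1, Svs2, Svs3a, Svs4, Svs5, Svs6, Sva and Pate4) made up 3.46% of the UMIs of knockout smooth muscle, against 0.364% and 1.28%, and 2.02% of those of knockout secretory cells, against 0.437% and 1.16%. All 8 belong to a set of 70 genes, each with 0.1% or more of the UMIs of barcodes holding fewer than 500 genes. With those 70 genes left out of the fits the changes were -1.19 in smooth muscle (edgeR adjusted p = 0.00186) and -1.23 in secretory cells (edgeR adjusted p = 0.0162). In the barcodes under 500 genes Aldh1a1 itself reached 17.1 CPM in the knockout, against 27.8 CPM in heterozygote 2; heterozygote 1 has only 2 such barcodes.

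Elsewhere the Aldh1a1 change did not pass the test. It was -0.94 ± 0.32 in seminal vesicle-like cells (edgeR adjusted p = 0.0527). There it passed at resolution 0.5 (0.0218), at resolution 2.0 (0.0454), with the retinoid genes in the clustering (0.0491), with stricter cells (0.0277) and in cells of at least 2466 UMIs (0.0262), and it was -0.35 in cluster 5 alone (0.892). The change was -0.89 ± 0.27 in ionocytes (0.349), -0.46 ± 0.34 in proximal luminal cells (0.889), -0.40 ± 0.37 in fibroblasts (0.856), -1.53 ± 2.02 in endothelial cells (0.984) and -0.03 ± 0.26 in basal cells (0.99). Basal cells were mixed. In basal clusters 0 and 18 the knockout was below both heterozygotes, at 128 against 292 and 169 CPM and at 234 against 564 and 329 CPM. In basal cluster 6, led by Tmem171 and Egfl6, it lay between them, at 415 against 429 and 199 CPM, and this cluster held 1371 of the 2197 Aldh1a1 UMIs of knockout basal cells. Cluster 6 made up 35.7% of the basal cells of the knockout, against 14.2% and 9.69%, so the class change also carries this difference in make-up. With 3 of 7 basal and 3 of 9 proximal luminal markers detected, cluster 6 took the basal name by the larger share of the list. None of the 3 basal clusters passed on its own (edgeR adjusted p = 0.499, 0.474 and 0.238 for clusters 0, 18 and 6, where 0.337%, 0.935% and 4.59% of genes were called). A test of the difference between one class and the mean of the other 7 had no usable standard error (none, or over 10) in 19 of 56 member-by-class cases. These were Crabp2 and Rbp4 in all 8 classes, Cyp26b1 in ionocytes and smooth muscle, and Aldh1a3 in secretory cells, and they had no outcome. None of the other cases was called; for Aldh1a1 in basal cells that difference was 0.95 ± 0.30 (edgeR adjusted p = 0.479), where 0.0695% of 15830 genes were called. In the same test 2.2% of genes were called in seminal vesicle-like cells, 0.152% in proximal luminal cells, 0.0505% in secretory cells, 0.0379% in smooth muscle and 0.0% in endothelial cells, fibroblasts and ionocytes.

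Unnamed cluster 12, of 312 knockout cells, against 283 and 76 heterozygote cells, also had less Aldh1a1 in the knockout. It is led by Wfdc15b, Sprr2f and Folr1, and 3 of the 8 seminal vesicle and 3 of the 9 proximal luminal markers were detected in it. The cluster kept no name because its top 10 genes held more markers of another class than of seminal vesicle. Aldh1a1 had 30 UMIs at 4.13 CPM in the knockout, against 144 at 36.6 CPM and 24 at 14.7 CPM. The change was -2.79 ± 0.43 (edgeR adjusted p = 1.68e-08), in a cluster where 6.39% of 9486 genes were called.

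**Figure D2:**
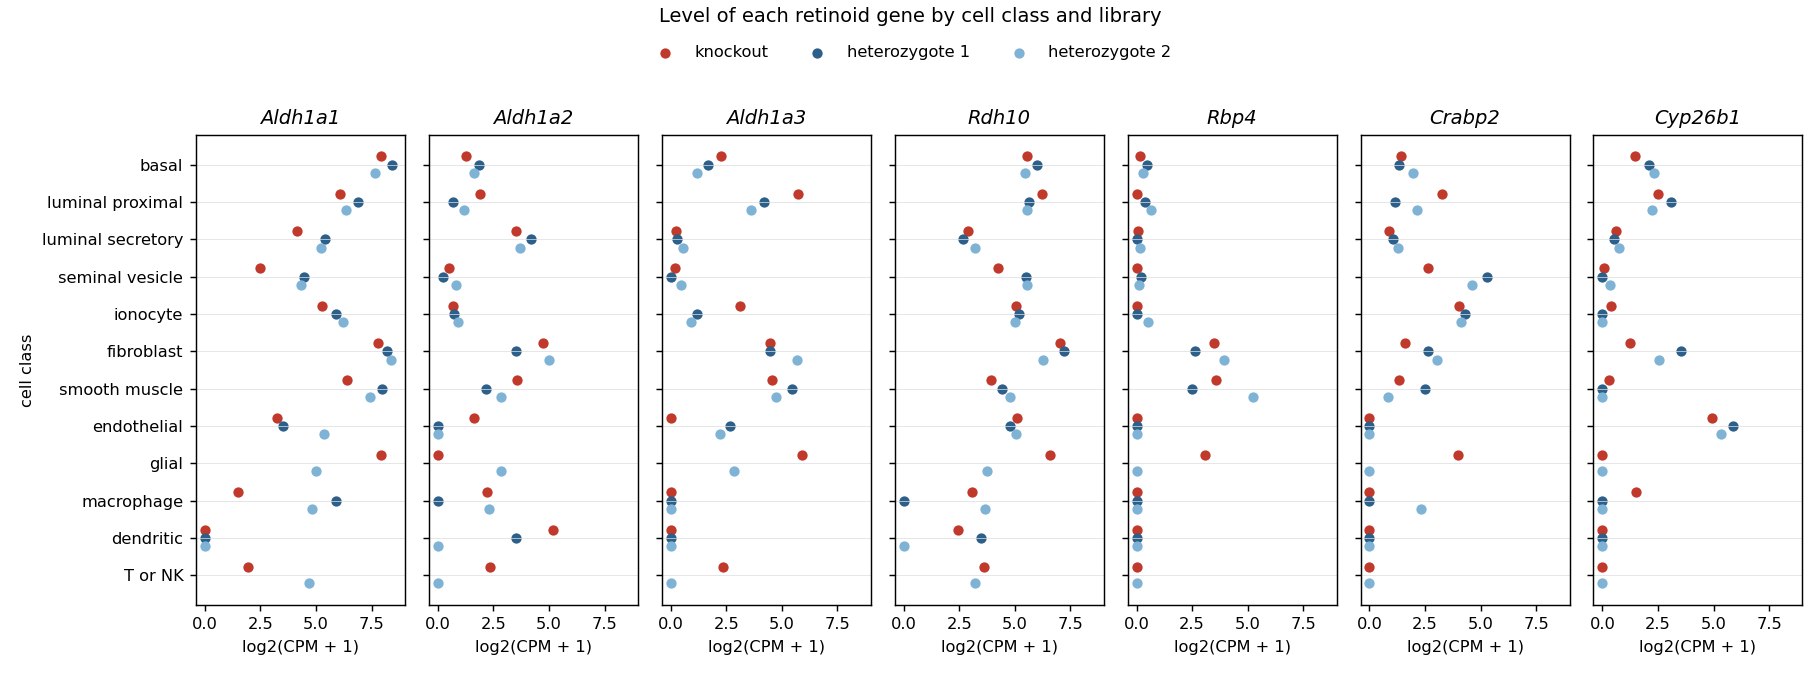
Level of each of the 7 genes (log2(CPM + 1), horizontal axes) in 12 cell classes (rows), with 1 point per library; sets of under 20 cells are not drawn. Aldh1a1 is widespread, Cyp26b1 is highest in endothelial cells, Crabp2 in seminal vesicle-like cells and ionocytes, and Rbp4 in smooth muscle and fibroblasts.

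Aldh1a2 (mm10 chromosome 9, 71215789 to 71296243, plus strand), the main retinal dehydrogenase of the early embryo, was found in fibroblasts and secretory luminal cells, with fewer UMIs in smooth muscle and dendritic cells. It had 37 UMIs at 25.6 CPM in knockout fibroblasts, against 2 at 10.5 CPM and 13 at 31.1 CPM. In secretory cells it had 179 UMIs at 10.4 CPM in the knockout, against 419 at 17.3 CPM and 542 at 11.9 CPM. The levels of these classes overlapped over libraries. Smooth muscle held 44 UMIs in the knockout, against 3 and 8 (1.25 ± 0.68, edgeR adjusted p = 0.437), and dendritic cells 8, against 1 and 0. In secretory cells Aldh1a2 was in other clusters than Aldh1a1. Clusters 1, 2 and 3 held it, while clusters 14 and 15 held almost none (0 UMIs in the knockout, against 2 and 4 UMIs, in cluster 14). Over all 34 sums of a class and a library the correlation of the levels of Aldh1a1 and Aldh1a2 was 0.029 (Pearson, log2(CPM + 1), points sharing libraries and depth).

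For secretory cells as a whole the Aldh1a2 change was -0.48 ± 0.31 and did not pass (edgeR adjusted p = 0.857). Within cluster 2, led by C1s2 and Pnliprp1, Aldh1a2 fell to 10.3 CPM in the knockout, against 37.6 and 21.5 CPM in the heterozygotes. That change was -1.39 ± 0.33 (edgeR adjusted p = 0.00244; 2.13% of 11763 genes called). Cluster 3 showed 11.8 CPM in the knockout, against 28.8 and 21.3 CPM, without passing (-0.99 ± 0.32, edgeR adjusted p = 0.11; 1.49% of genes called). Cluster 1 showed 18.4 CPM in the knockout, against 16.7 and 7.19 CPM (0.74 ± 0.35, edgeR adjusted p = 0.6; 1.14% of genes called). Single clusters were added as an alternative after the data had been seen, and of 51 member-by-cluster fits over 17 clusters 4 passed, where 1.87% of all gene-by-cluster fits did.

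The highest Aldh1a2 level of any cluster with at least 20 cells was in the knockout's cluster 32, which had no name. It held 102 knockout cells, against 4 and 2 heterozygote cells, so its groups were not tested. Its knockout cells held 298 Aldh1a2 UMIs, 145 CPM (95% counting interval 129 to 163), and 76.5% of them had at least 1 (67.0 to 84.3%). The 10 cells with the most Aldh1a2 held 36.9% of these UMIs. The 6 heterozygote cells held none. Its leading genes include Aqp8, Gpx3, Atp4a and Pigr beside Aldh1a2, and 2 of 5 urothelial markers were detected. Aldh1a1 had 4 UMIs there, Rdh10 17, Cyp26b1 2, Crabp2 1, and Aldh1a3 and Rbp4 none.

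**Figure D3:**
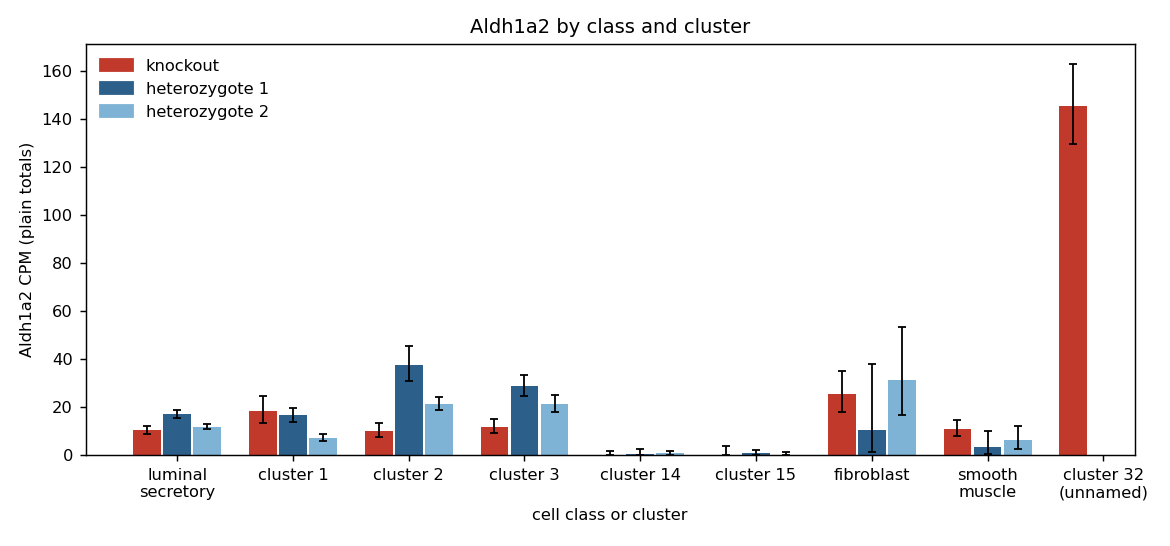
Aldh1a2 level (CPM on plain totals, vertical axis from 0) in secretory luminal cells, 5 of their clusters, fibroblasts, smooth muscle and unnamed cluster 32; bars are libraries and error bars exact Poisson 95% intervals. Cluster 32 stands at 145 CPM in the knockout (its 4 and 2 heterozygote cells are not drawn), and in cluster 2 the knockout is at 10.3 CPM, against 37.6 and 21.5 CPM in the heterozygotes.

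Aldh1a3 (mm10 chromosome 7, 66390890 to 66427517, minus strand), the third retinal dehydrogenase, was found in proximal luminal cells, smooth muscle and fibroblasts. Proximal luminal cells held 78 UMIs at 52.4 CPM in the knockout, against 58 at 17.5 CPM and 62 at 11.3 CPM. The knockout lay above both heterozygotes, yet the change of 1.98 ± 0.35 did not pass over all genes (edgeR adjusted p = 0.562), in a class where 3 of 11728 genes, 0.0256%, were called. Heterozygote 2 drew 49.2% of its proximal cells from cluster 19, against 2.00% in the knockout and 4.07% in heterozygote 1. In cluster 13, which held all 9 proximal markers, Aldh1a3 was at 53.6 CPM in the knockout, against 21.03 and 29.3 CPM. There it rose by 1.29 ± 0.32 (edgeR adjusted p = 0.00629; 1.99% of 10007 genes called). The value of the whole class passed with no filter on low counts (edgeR adjusted p = 1.28e-04), at clustering resolution 2.0 (0.022) and with the retinoid genes in the clustering (0.0202).

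In ionocytes, acid-secreting epithelial cells, Aldh1a3 had 26 UMIs at 7.58 CPM in the knockout, against 2 at 1.30 CPM and 2 at 0.874 CPM. Few cells held them: 10 of 205 in the knockout, against 1 of 104 and 2 of 176. The change was 2.76 ± 0.82 (edgeR adjusted p = 0.312; 0.456% of 10094 genes called), and it passed with no filter on low counts (0.0107), with doublets kept (0.0255) and with the retinoid genes in the clustering (0.0315). Cluster 24 held 18 of the 26 knockout UMIs, against 0 and 1 heterozygote UMIs. Smooth muscle had 22.7 CPM of Aldh1a3 in the knockout, against 42.7 and 25.8 CPM (-0.40 ± 0.33, edgeR adjusted p = 0.716), and fibroblasts had 21.4 CPM, against 21.1 and 50.3 CPM (-0.78 ± 0.53, 0.78). In 65 knockout cells named glia there were 8 Aldh1a3 UMIs (58.6 CPM), against 0 in 16 and 1 in 45 heterozygote cells of that name. Marker shares of this class differed between libraries, as given for Aldh1a1, so these counts may compare unlike cells.

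Rdh10 (mm10 chromosome 1, 16105774 to 16133734, plus strand), the retinol dehydrogenase, was highest in fibroblasts, with 129 CPM in the knockout, against 147 and 76.7 CPM. Fibroblasts did not overlap proximal luminal cells, the next class, over libraries; knockout glia, with 13 UMIs at 95.3 CPM, lay within the fibroblast range. In turn, the 7 classes that followed, from proximal luminal cells down to smooth muscle, each overlapped its neighbour in the order. Proximal luminal cells had 72.6 CPM of Rdh10 in the knockout, against 48.9 and 45.2 CPM (0.73 ± 0.28, edgeR adjusted p = 0.887). Basal cells had 46.3 CPM, against 63.7 and 43.4 CPM (-0.07 ± 0.22, 0.966). No Rdh10 change passed in any of the 7 classes where it was tested. Cluster 5 of the seminal vesicle-like cells was nearly level over libraries at 47.8 CPM in the knockout, against 45.6 and 48.5 CPM (0.01 ± 0.29, edgeR adjusted p = 1.00). In the barcodes under 500 genes Rdh10 was at 28.4 CPM in the knockout (63 UMIs), against 4.93 CPM in heterozygote 2 (11 UMIs). Unnamed cluster 8, of 865 knockout cells, against 1 and 3 heterozygote cells, held 211 Rdh10 UMIs at 72.0 CPM in the knockout.

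Rbp4 (mm10 chromosome 19, 38116629 to 38125281, minus strand) was scarce, with 178 UMIs in all deposited barcodes. Smooth muscle held most of it, with 44 UMIs at 10.98 CPM in the knockout, against 4 at 4.61 CPM and 47 at 36.8 CPM. Fibroblasts held 15 UMIs, against 1 and 6. Smooth muscle was the only class where Rbp4 passed the low-count filter. Its change of -0.90 ± 0.40 did not pass (edgeR adjusted p = 0.258), and against heterozygote 1 alone it was 1.28, so its sign rests on heterozygote 2. Of the 62 Rbp4 UMIs of kept knockout cells 59 were in these 2 classes, against 5 of 8 and 53 of 64 in the heterozygotes.

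Crabp2 (mm10 chromosome 3, 87948666 to 87953376, plus strand), the retinoic acid binding protein, was found mainly in seminal vesicle-like cells and in ionocytes. Seminal vesicle-like cells held 301 UMIs at 5.24 CPM in the knockout, against 234 at 37.6 CPM and 332 at 23.8 CPM. The class change was -1.38 ± 0.32 (edgeR adjusted p = 5.28e-04; DESeq2 0.048), beside 879 of 12612 genes called, 6.97%, and 3.19% called as lower; DESeq2 called 2.54%. The clusters behind this class differed between libraries. Cluster 5 held 28.8% of the knockout cells of the class, against 97.3% and 62.5%. Cluster 11, led by Sva, Svs3a and Ceacam10, held 43.8% of the knockout cells and 79.2% of their UMIs, against 1.497% and 0.124% of heterozygote cells, and its knockout cells had 0.418 CPM of Crabp2. Cluster 5, led by Pate8, Ccdc162 and Lpo and with 3 of the 8 seminal vesicle markers detected, alone held 92.0% of the knockout's Crabp2 UMIs in the class, at 26.0 CPM, against 38.9 and 25.7 CPM in the heterozygotes. There the groups overlapped and the change was -0.30 ± 0.29 (edgeR adjusted p = 0.93; 2.36% of 11729 genes called). The scaling in the class fit (TMM) raised log2 values of the knockout by 1.19 relative to the heterozygotes, so the fitted fall is smaller than the ratio of the plain CPM; the shift was between -0.02 and 0.23 in the other 7 classes.

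**Figure D4:**
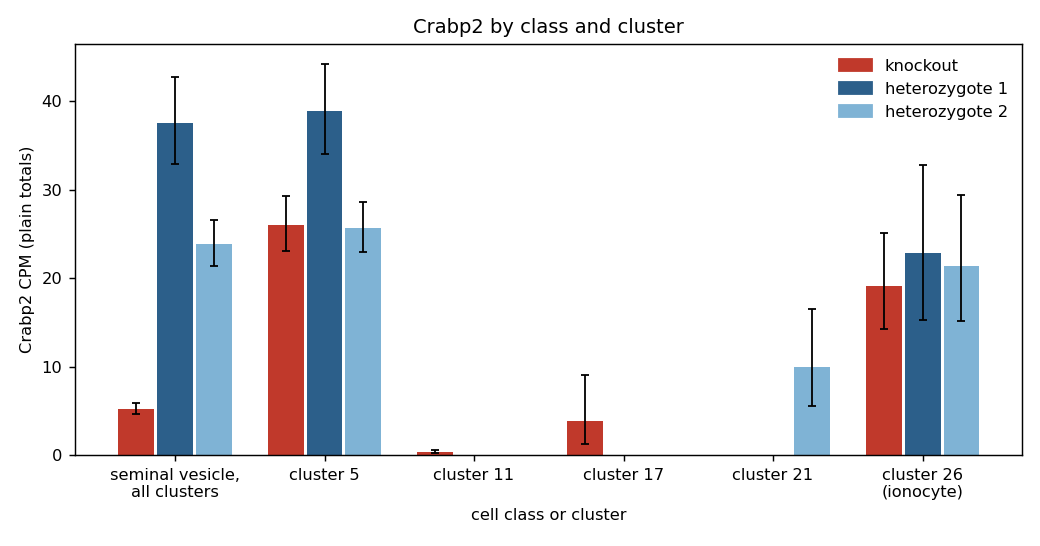
Crabp2 level (CPM on plain totals, vertical axis from 0) in seminal vesicle-like cells, in each of their 4 clusters and in ionocyte cluster 26; bars are libraries of at least 20 cells and error bars exact Poisson 95% intervals. The class is at 5.24 CPM in the knockout, against 37.6 and 23.8 CPM, whereas cluster 5 alone is at 26.0 CPM, against 38.9 and 25.7 CPM.

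Ionocytes had 15.2 CPM of Crabp2 in the knockout, against 18.8 and 16.6 CPM (-0.26 ± 0.32, edgeR adjusted p = 0.997), all of it in cluster 26. That cluster carries Foxi1 and proton pump subunits, and the ionocyte class also drew 34.3% of its knockout UMIs from seminal vesicle markers, against 40.0% and 36.4%. Whether that RNA bears on Crabp2 there was not tested. In proximal luminal cells Crabp2 had 13 UMIs in the knockout, against 4 and 19 (1.89 ± 0.80, edgeR adjusted p = 0.887). The knockout UMIs lay in 4 of 150 cells, against 3 of 418 and 14 of 797 heterozygote cells. Cluster 34 held 52.6% of those of heterozygote 2 and 0% of those of the knockout.

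Cyp26b1 (mm10 chromosome 6, 84571414 to 84593908, minus strand), which breaks retinoic acid down, was highest in endothelial cells and apart from every other class over libraries. Endothelial cells had 29.4 CPM in the knockout (14 UMIs), against 57.9 and 39.9 CPM (11 UMIs each). The change of -0.59 ± 0.62 did not pass (edgeR adjusted p = 0.984; 1.12% of 5270 genes called). Fibroblasts, proximal luminal cells and basal cells followed with class means of 5.57, 5.30 and 3.02 CPM and overlapped one another. In proximal cells it had 7 UMIs in the knockout, against 25 and 20 (-0.10 ± 0.74, edgeR adjusted p = 0.99).

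Over the 8 classes 36 member-by-class changes could be tested, 3 passed, and all 3 were lower in the knockout; 9 had an unadjusted p under 0.05. Over all genes in the same 8 fits 2.76% passed, 1.44% as lower in the knockout, and 9.98% had an unadjusted p under 0.05. The members' median change was -0.54 in secretory cells, -0.61 in smooth muscle and -0.54 in seminal vesicle-like cells, beside -0.02, -0.01 and -0.02 over all genes tested. It was 0.73 in proximal luminal cells, beside -0.02. In fibroblasts, where 1.37% of 7012 genes were called, and in basal cells, where 4.57% of 12258 were, no member passed. The only replicates are the 2 heterozygote libraries, which leave 1 residual degree of freedom. The edgeR fit pools the spread over the genes of a class, so its p-values say little about a gene's own spread between libraries. A knockout spread equal to that of the heterozygotes is assumed, since 1 library shows none.

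**Figure D5:**
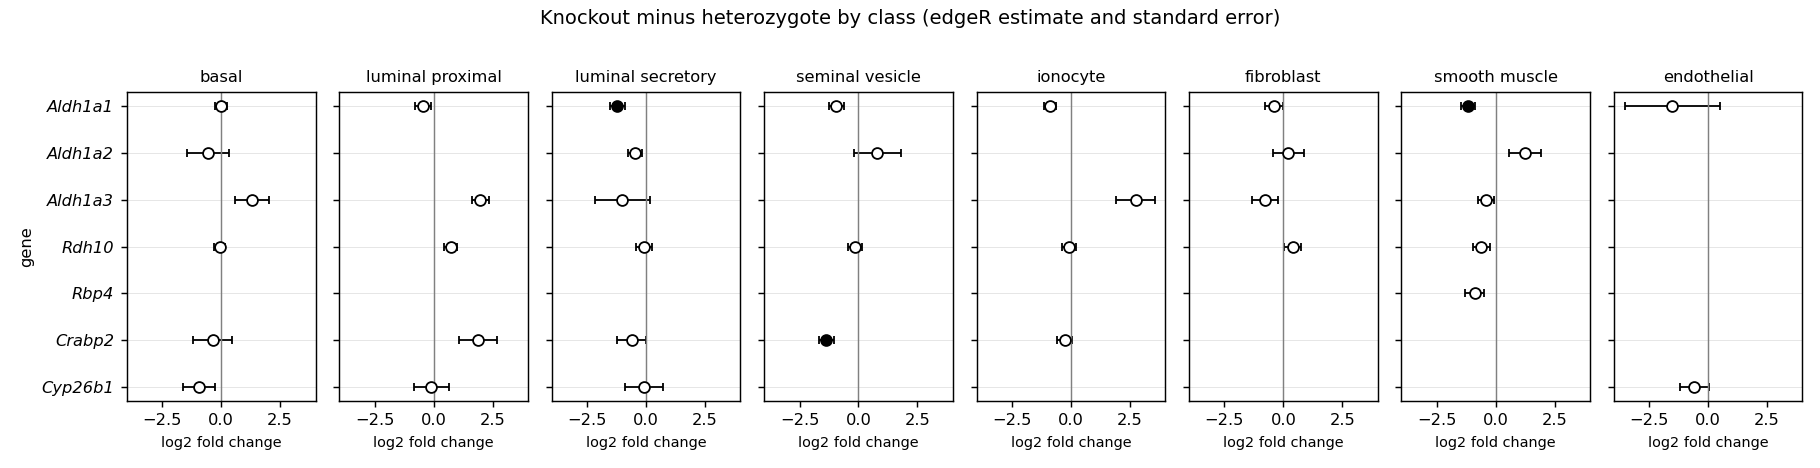
Change of each gene between knockout and heterozygote libraries (log2 fold change, knockout minus heterozygote, horizontal axes; bars are standard errors) in 8 cell classes; filled points passed an adjusted p of 0.05 with edgeR. The 3 filled points are Aldh1a1 in luminal secretory cells at -1.22, Crabp2 in seminal vesicle-like cells at -1.38 and Aldh1a1 in smooth muscle at -1.19.

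Among the other 50 retinoid genes 221 changes were tested, 1 passed as higher in the knockout and 7 as lower. In the same fits 2.76% of all gene-by-class tests passed, 1.44% as lower in the knockout. Whether these genes differ from others as a set was not tested. Over all genes edgeR called 2.19% as lower in basal cells, 0.74% in endothelial cells and 3.78% as higher in seminal vesicle-like cells, and DESeq2 called 0.604% in basal and 0.171% in endothelial cells. In basal cells Aldh1a7, a close paralog that lies beside Aldh1a1 on chromosome 19, had 131 UMIs at 14.5 CPM in the knockout, against 203 at 75.6 CPM and 254 at 52.8 CPM. It fell by 2.01 ± 0.25 on the log2 scale (edgeR adjusted p = 4.34e-13; DESeq2 2.93e-04), while Aldh1a1 in the same cells did not pass. In secretory cells Aldh1a7 was at 3.62 CPM in the knockout, against 10.8 and 6.88 CPM (-1.28 ± 0.35, edgeR adjusted p = 0.0218; DESeq2 0.489), beside the lower Aldh1a1, and missed with no filter on low counts (0.188) and in cells of at least 2466 UMIs (0.309). The 2 genes are near-identical in part, and the labels do not say how reads that match both were counted, so their values may not be separate. Adh1, an alcohol dehydrogenase that accepts retinol, was at 40.7 CPM in knockout basal cells, against 116 and 80.8 CPM (-1.14 ± 0.24, edgeR adjusted p = 1.01e-04; DESeq2 0.136). Seminal vesicle markers took 5.91% of the UMIs of knockout basal cells, against 1.05% and 1.11%, and with the 70 genes common in near-empty barcodes left out the changes were -2.02 for Aldh1a7 and -1.15 for Adh1 (edgeR adjusted p = 1.08e-12 and 1.12e-04).

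A pair of genes of uptake and binding were lower in secretory cells. Stra6, the receptor for Rbp4, had 9 UMIs in the knockout, against 78 and 174 (-2.72 ± 0.56, edgeR adjusted p = 2.11e-04; DESeq2 0.0417). Crabp1, the other cellular retinoic acid binding protein, had 147 UMIs at 8.58 CPM, against 935 at 38.6 CPM and 942 at 20.6 CPM (-1.79 ± 0.34, edgeR adjusted p = 2.96e-05; DESeq2 0.00881), and it missed in cells of at least 2466 UMIs (0.101). Crabp1 lay mostly in cluster 15, led by Spink5 and Sbp, with 145 of these UMIs in the knockout, against 895 and 690, and this cluster made up 81 of 1127 secretory cells in the knockout, against 262 of 2116 and 265 of 4145. Within cluster 15 Crabp1 was at 155 CPM in the knockout, against 202 and 164 CPM, and did not pass (-0.38 ± 0.46, edgeR adjusted p = 0.979; 1.35% of genes called).

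Fabp5, a fatty acid binding protein that also carries retinoic acid, was at 67.6 CPM in knockout seminal vesicle-like cells, against 4.18 and 10.6 CPM (4.32 ± 0.31, edgeR adjusted p = 6.78e-40; DESeq2 5.04e-04). In endothelial cells Fabp5 was at 35.8 CPM in the knockout, against 89.5 and 152 CPM (-1.69 ± 0.44, edgeR adjusted p = 0.0133; DESeq2 1.00). Seminal vesicle markers took 4.45% of the UMIs of knockout endothelial cells, against 0.403% and 1.91%. With the same 70 genes left out Fabp5 was nearly unchanged at -1.68 ± 0.45 but did not pass (edgeR adjusted p = 0.681). The loss was not particular to Fabp5: in that fit 1 of 5058 endothelial genes was called, against 59 of 5270 in the main fit. Fabp5 also missed with doublets kept (-1.26, 0.774), with the retinoid genes in the clustering (0.55) and with no filter on low counts (0.151). Rxra, a partner of the retinoic acid receptors, was at 0.871 CPM in knockout seminal vesicle-like cells, against 5.14 and 6.32 CPM (-1.55 ± 0.45, edgeR adjusted p = 0.0134; DESeq2 0.377). In cluster 5 alone neither Fabp5 nor Rxra passed (edgeR adjusted p = 0.992 and 0.451).

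Genes among the other 50 that reached a class mean of 50 CPM in at least 1 class were spread over the classes. Adh1 (165 CPM), Adh5, Dhrs3, Dhrs4 and Meis2 (353 CPM) had their highest class mean in proximal luminal cells. Stra6, Dhrs7 and Rarres2 (611 CPM) had theirs in fibroblasts. Rbp7 (124 CPM), Tgm2, Rara and Lipe had theirs in endothelial cells, Nrip1, Tgif1 and Pdk4 in basal cells, Pnpla2 in smooth muscle, Fabp5 in glia, Akr1b3 (872 CPM) in secretory luminal cells, and Dgat1, Ncor1 and Zbtb16 in T or NK cells.

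The genes outside the retinoid lists whose levels ran most like those of each member were found over the same 34 sums, among 12902 genes with at least 10 CPM in a class mean. For Aldh1a1 they were Nenf (r = 0.90), Ctsl and Npas2, and for Aldh1a3 Ahnak2 (0.89), Etv1 and A830082K12Rik. For Rbp4 they were Sfrp2 (0.93), Loxl1 and Gli1, for Rdh10 Usp53 (0.82), Gm20400 and Scara3, and for Crabp2 Cwh43 (0.80), Lpo and Serpine2. For Cyp26b1 they were AU021092 (0.90), Csf3 and Rph3al. For Aldh1a2 the closest reached lower, with L3mbtl4 (0.69), Igdcc4 and Grin2d. The points share libraries, depth and many zeros, so these are descriptions of likeness only.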

How the data were processed

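The deposited values are raw counts of UMIs per gene and barcode, with no normalization by the authors. The submitters' processing notes name Cell Ranger 3.1.0 and mm10; the rule that separated cells from empty droplets is not given in the sources used here. Coordinates are from GENCODE vM21; 719 of the 32594 gene IDs carry another version than that release. Filters of 500 or more genes and 15% or less mitochondrial UMIs left the barcodes used (9983 in the knockout, 4718 and 10587 in the heterozygotes), and the top doublet scores, at 0.8% per 1000 cells, were removed (816, 197 and 929). Clustering used 2000 variable genes, 30 principal components, 15 neighbors and Leiden at resolution 1 (igraph 0.11.9), without the 57 retinoid genes and 70 genes common in near-empty barcodes (0.1% or more of UMIs where fewer than 500 genes were seen). A cluster was named with at least 3 markers detected (log2 fold 1, 25% of cells). One naming rule was added after the data were seen: a class whose whole marker list is free RNA names a cluster only if its markers lead the top 10 genes.

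Summed counts per class and library were tested with edgeR 4.0.16 (filterByExpr, TMM, quasi-likelihood; all 3 libraries, adjusted over all genes of a class, threshold 0.05) and with DESeq2 1.42.0. A second fit with library, class and class by knockout terms tested differences between classes. For edgeR each standard error is the absolute log2 change divided by the square root of the F statistic of its test. It does not carry the degrees of freedom of a class, so like ratios can give unlike p-values in different classes. The fits were tested on simulated data. Levels use plain totals, intervals are exact Poisson or Clopper-Pearson 95% intervals and cover counting error only, and shares were also taken with cells thinned to 1000 UMIs. Figures were drawn with matplotlib 3.10.9. All 7 members are named in every class; other retinoid genes are named if called or at 50 CPM in a class, except some that are not reported here, and the 3 most alike genes per member. Members, lists and tests were chosen with earlier results of these data known. Alternatives covered scaling, filters, clustering, doublets and left-out libraries, and 3 were added after the data were seen. Nothing in the labels says that libraries come from separate animals, so p-values may measure technical spread.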

Additional observations from a re-analysis of the deposited data

Results flagged for a closer look

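Unnamed cluster 32 lies outside the class comparisons, and its knockout cells held Aldh1a2 at 145 CPM, above the level in every named heterozygote class of at least 20 cells. The cluster is nearly all from 1 library, so a library and a cell type cannot be told apart; no test between groups was possible.

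In seminal vesicle-like cells the change of 2 retinoid genes outside the 7 differed from the mean change in the other 7 classes. That test called 349 of 15830 genes in this class, 2.2%, the largest share of any fitted class. For Fabp5 the difference was 4.60 (edgeR adjusted p = 5.70e-09), and for Dhrs7, a short-chain dehydrogenase, it was 0.92 (edgeR adjusted p = 0.0321). In cluster 5 alone the changes were -0.19 for Fabp5 and 0.40 for Dhrs7 and neither passed (edgeR adjusted p = 0.992 and 0.804). Knockout cells of this class came mostly from clusters 11 and 17, and heterozygote cells mostly from cluster 5.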

How the results depend on the processing

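Values are log2 fold changes, knockout minus heterozygote. Of the 3 changes that passed, Aldh1a1 in secretory luminal cells was -1.25 with no filter on low counts and -1.20 in cells of at least 2466 UMIs, and missed the threshold in both (edgeR adjusted p = 0.0783 and 0.166); Aldh1a1 in smooth muscle was -1.19 with DESeq2 and missed it there (adjusted p = 0.22). Crabp2 in seminal vesicle-like cells was -0.30 in the cluster shared by all libraries, an alternative chosen after the data were seen, and no longer passed (edgeR adjusted p = 0.93). With 1 heterozygote left out, a value with no test, Crabp2 ranged from -1.75 to -0.98, Aldh1a1 in smooth muscle from -1.41 to -0.94 and Aldh1a1 in secretory cells from -1.35 to -1.06. The count of 3 became 5 at resolution 2.0 and 6 with the retinoid genes in the clustering. Aldh1a2 in secretory cells was 0.79 at resolution 0.5, 0.82 at resolution 2.0 and 0.77 with doublets kept; under these 3 settings all 108 cells of cluster 32 fell into that class. Among changes that did not pass in either form, the sign turned for Aldh1a1 in basal cells (0.0395 with no filter, 0.000233 at resolution 2.0), Cyp26b1 in proximal cells (0.0144 at resolution 2.0) and in secretory cells (0.16 with doublets kept, 0.029 with stricter cells), Rdh10 in smooth muscle (0.0906 at resolution 0.5, 0.14 with doublets kept) and Rdh10 in seminal vesicle-like cells (0.0137 in the shared cluster). With secretory and proximal luminal cells in 1 class Aldh1a3 was 1.17, Crabp2 0.0827 and Rdh10 0.035, against -1.01, -0.60 and -0.10 in secretory cells alone. With 1 heterozygote left out 10 of 36 ranges spanned 0, none of them of a change that passed: Aldh1a1 in basal cells (-0.36 to 0.37), Aldh1a2 (-0.17 to 1.22), Aldh1a3 (-1.06 to 0.15) and Rdh10 (-0.06 to 0.83) in fibroblasts, Rbp4 in smooth muscle (-1.58 to 1.28), Rdh10 in basal (-0.33 to 0.19), secretory (-0.31 to 0.19) and ionocyte-like cells (-0.22 to 0.03), and Cyp26b1 in proximal (-0.48 to 0.37) and secretory cells (-0.22 to 0.13). The cause was not tested. Counts of genes called, with their range over the tested settings, were 560 (74 with DESeq2 to 574) in basal cells, 59 (1 without the free RNA genes to 61) in endothelial cells, 96 (8 with DESeq2 to 216 with doublets kept) in fibroblasts, 46 (5 in shared clusters to 200 with doublets kept) in ionocytes, 3 (2 to 199 in shared clusters) in proximal luminal cells, 303 (78 in cells of at least 2466 UMIs to 328) in secretory cells, 879 (277 in shared clusters to 1400 with doublets kept) in seminal vesicle-like cells and 403 (38 with DESeq2 to 407) in smooth muscle. Of 474 alternative values for the members, 428 kept their direction and side of the threshold or moved by less than their error. No paired analysis was possible because the knockout has 1 library, so the groups share fewer than 2 replicate numbers.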

Other observations

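In unnamed cluster 12 edgeR called 606 of 9486 genes, 6.39%, 319 as higher and 287 as lower in the knockout. Of 25 retinoid genes tested there 3 were called, all lower in the knockout. Beside Aldh1a1 these were Aldh1a7, with 9 UMIs in the knockout, against 28 and 11 in the heterozygotes (-2.57 ± 0.66, edgeR adjusted p = 0.00294), and Zbtb16, a transcription factor (-1.91 ± 0.41, edgeR adjusted p = 1.86e-04). Crabp2 (0.38 ± 0.55, edgeR adjusted p = 0.796) and Rdh10 (0.49 ± 0.34, edgeR adjusted p = 0.506) did not pass there. In basal cells Aldh1a7 also passed in each of clusters 0, 6 and 18 fitted alone, at -2.01, -1.65 and -1.59 (edgeR adjusted p = 0.0357, 0.015 and 0.00782). Adh1 passed in clusters 0 and 6, at -1.85 and -1.01 (edgeR adjusted p = 0.0235 and 0.0055). Over all genes 0.337%, 4.59% and 0.935% were called in clusters 0, 6 and 18. Stra6 passed in secretory cluster 14 (-2.89 ± 0.55, edgeR adjusted p = 9.97e-05), where 0.863% of genes were called. That cluster also held most secretory Aldh1a1.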
